A study of Mus musculus with 11 samples.

Results

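The 10 genes described here belong to the unfolded protein response of the endoplasmic reticulum (ER) and were chosen by symbol: Hspa5, Hsp90b1, Calr, Herpud1, Atf6, Xbp1, Ern1, Dnajb9, Sdf2l1 and Pdia4. All 10 were found among the 15113 genes of the count table, and all 10 passed the low-count filter that left 13025 genes for testing. They were measured in C2C12, a mouse myoblast line that forms multinucleated myotubes, in cells labelled as early stage myotubes at passages 2 to 5. The 6 control libraries carried a random hairpin (shRandom) and the 5 knockdown libraries a hairpin against Drp1 (shDRP1), the GTPase that constricts and divides mitochondria and is encoded by Dnm1l. All libraries were 3' tag libraries (QuantSeq), which count each transcript near its poly(A) tail. The labels give neither the sequence of a hairpin nor how the cells were selected. They also leave unsaid whether each library is a culture of its own, so the p-values describe spread among these libraries and that spread may be technical.

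The ER lumen folds secreted and membrane proteins with the chaperones BiP (Hspa5) and GRP94 (Hsp90b1), the lectin chaperone calreticulin (Calr), and disulfide isomerases such as Pdia4. When unfolded proteins build up, BiP leaves the sensors ATF6, IRE1 (Ern1) and PERK (Eif2ak3). ATF6 is then cut to free a transcription factor, IRE1 splices Xbp1 mRNA so that it encodes an active factor, and PERK phosphorylates eIF2 alpha and so favours translation of ATF4. In muscle the same membrane system forms the sarcoplasmic reticulum, and calreticulin and GRP94 bind calcium in its lumen. Tags at the 3' end measure the amount of each mRNA and show neither the splicing of Xbp1 nor the cleavage of ATF6 nor the phosphorylation of PERK.

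The classical ER stress response element (ERSE), bound by NF-Y and ATF6, is CCAAT, then 9 bases of any kind, then CCACG. The compact ERSE-II is ATTGG, then 1 base of any kind, then CCACG. Both were searched on both strands in windows from 250 bases before to 50 after the RefSeq start (GRCm38.p6), which were given for 9 of the 10 genes. Exact ERSE matches lay in the windows of Hspa5, Hsp90b1 and Calr, and an exact ERSE-II in that of Herpud1. The ERSE occurred in 39 of 32851 such windows of all genes (0.119%) and the ERSE-II in 12 (0.0365%). The core of the unfolded protein response element, TGACG directly followed by TGG, was in 0.676% of windows and in none of the 9, which says only that these letters are not in those windows. The promoters are shown because these 4 genes hold such an element and, of them, Hsp90b1 was higher in shDRP1 libraries, Herpud1 was lower and the other two did not pass the test. Fixed bases of each element are in capitals. Each sequence stops at the RefSeq start, or before it where an annotated exon begins. For Hspa5, whose element lies inside an annotated exon, only the element itself is given.
Hspa5 element, chr2:34772025-34772043, plus strand: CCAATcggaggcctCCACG
Hsp90b1 promoter, chr10:86705510-86705694, minus strand: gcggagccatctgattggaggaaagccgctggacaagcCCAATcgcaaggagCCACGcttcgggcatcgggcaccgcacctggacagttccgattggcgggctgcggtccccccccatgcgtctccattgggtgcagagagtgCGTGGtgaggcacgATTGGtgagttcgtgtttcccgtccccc
Calr promoter, chr8:84846935-84847181, minus strand: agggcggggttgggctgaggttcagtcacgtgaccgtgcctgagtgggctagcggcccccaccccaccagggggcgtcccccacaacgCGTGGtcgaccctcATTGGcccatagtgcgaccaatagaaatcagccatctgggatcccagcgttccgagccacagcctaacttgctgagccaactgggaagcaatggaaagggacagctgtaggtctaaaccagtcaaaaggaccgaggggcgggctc
Herpud1 promoter, chr8:94386179-94386428, plus strand: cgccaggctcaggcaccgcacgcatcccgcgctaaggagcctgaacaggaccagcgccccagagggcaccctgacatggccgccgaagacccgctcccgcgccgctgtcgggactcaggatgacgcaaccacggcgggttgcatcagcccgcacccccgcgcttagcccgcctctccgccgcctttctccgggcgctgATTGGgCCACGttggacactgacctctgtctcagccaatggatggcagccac
Hsp90b1 holds the ERSE 2 times, at bases -212 to -194 and, on the opposite strand, at -107 to -89, counted from the RefSeq start. In Calr the element is reversed at -162 to -144, in Hspa5 it lies at -65 to -47, and the ERSE-II of Herpud1 lies at -52 to -42. A match is a description of these letters and was not tested for binding.

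Total counts ran from 15702942 to 23082617 in shRandom and from 12277622 to 20706327 in shDRP1 libraries. Dnm1l, the target of the hairpin, was at 78.6 ± 8.63 CPM (a gene's count relative to the scaled library total, SD, n = 6) in shRandom and 18.7 ± 2.58 CPM (SD, n = 5) in shDRP1, which is 23.7% of the control mean. Defining markers of myotubes were near 0 in shDRP1 libraries against their level in shRandom. All 6 myotube markers (Myog, Myh3, Acta1, Ckm, Ttn and Mymk) were lower, their summed level being 8596 to 9536 CPM in shRandom and 59.7 to 85.8 CPM in shDRP1. The 3 tested smooth muscle markers (Cnn1, Acta2 and Tagln) were higher, with sums of 2610 to 3152 and of 8130 to 9907 CPM. The sums of the 3 fibroblast markers in the table (Col1a1, Pdgfra and Dpt) were 1261 to 1691 and 3124 to 5413 CPM, of which Col1a1 was higher and Dpt lower. The 4 myoblast markers summed to 390.8 to 450.2 and 35.6 to 49.8 CPM, with Myod1, Pax7 and Cdh15 lower and Myf5 higher. No endothelial marker was among the rows used, and Cd68, the macrophage marker there, stayed at or under 1.08 CPM. In bulk RNA, fewer cells of a type and less RNA per cell cannot be told apart, and the part of these shifts in the results below was not tested.

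The 10 genes did not move as a block. By the edgeR quasi-likelihood test at an adjusted p of 0.05, 2 were higher in shDRP1 libraries (Hsp90b1 and Sdf2l1), 4 were lower (Herpud1, Atf6, Ern1 and Dnajb9) and 4 did not pass (Hspa5, Calr, Xbp1 and Pdia4). Calls of either direction were made for 67.1% of all tested genes, 33.9% higher and 33.3% lower, so the 6 calls among the 10 genes are near the background and say nothing particular about the group. The groups did not overlap for 5 of the 10 genes, 2 higher and 3 lower, against 48.9% of all tested genes (23.5% higher and 25.4% lower). A call with at least a 2-fold change was made for 4 of the 10, against 24.9% of all tested genes. Atf6 and Dnajb9 lie near that limit and fell short of it with upper-quartile scaling (-0.93 and -0.988) and with library totals alone (-0.915 and -0.969), which leaves 2 of the 10. Over single left-out libraries Atf6 ran from -1.046 to -0.96 and Dnajb9 from -1.297 to -0.934, on both sides of the limit. The median log2 fold change of shDRP1 over shRandom was -0.14 for the 10 genes and 0.03 for all tested genes, and the 10 ranged from -2.97 to 1.42.

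**Figure D1:**
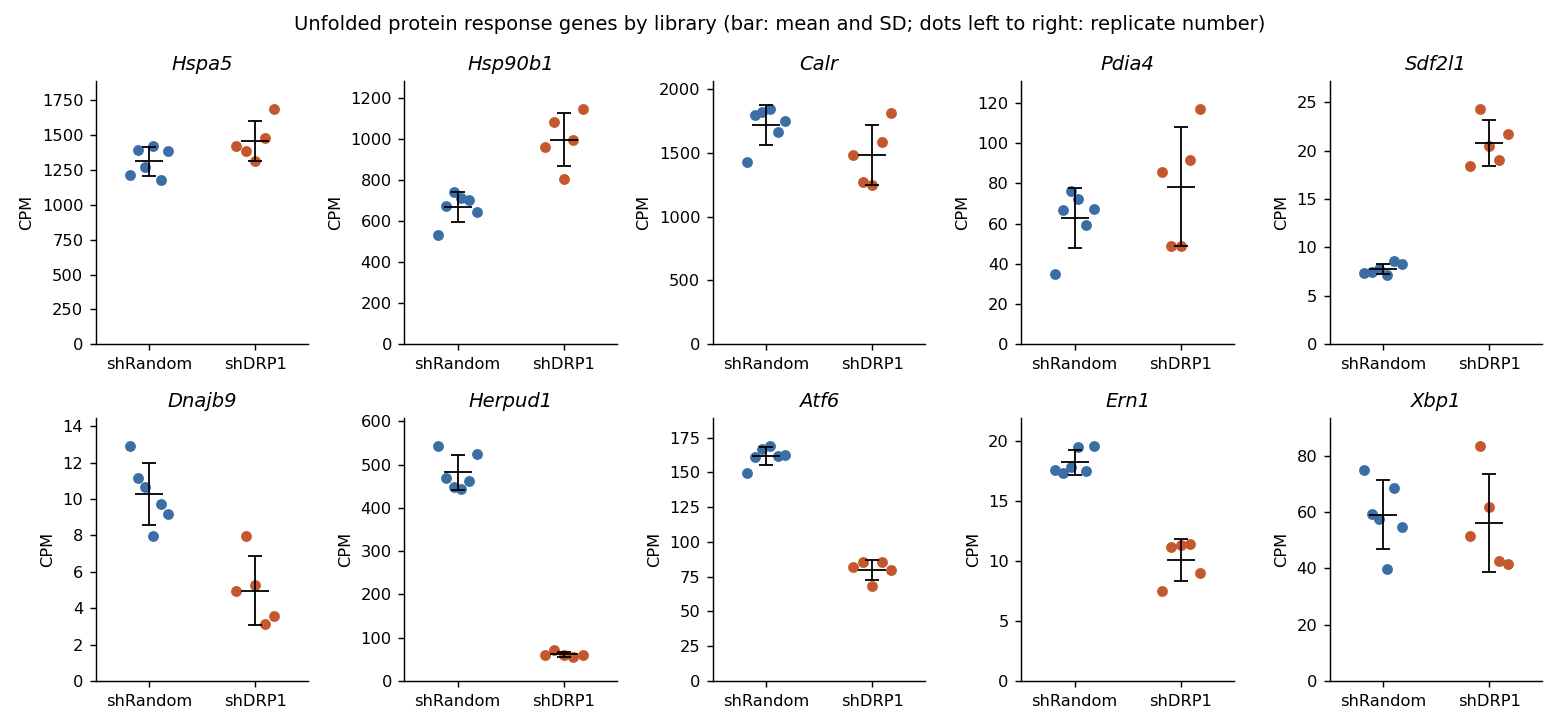
Level of each gene in CPM (y axis from 0) in every shRandom (n = 6) and shDRP1 (n = 5) library, with dots ordered by replicate number and bars giving the mean and SD. Herpud1, Atf6 and Ern1 are lower in every shDRP1 library than in any shRandom library, Sdf2l1 and Hsp90b1 are higher in every one, and the groups overlap for the other 5.

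Among the lumenal chaperones, GRP94 rose while BiP did not pass the test. Hsp90b1 (ENSMUSG00000020048, chromosome 10, 86690209 to 86705509, minus strand, GRCm38 as for all positions here) ranged in shRandom libraries from 534.8 to 740.7 CPM with a median of 689.1, and shDRP1 replicates 1 to 5 were at 963.6, 1083, 804.0, 996.3 and 1147 CPM. Every shDRP1 library was above every shRandom library. The means were 668.9 ± 73.6 CPM in shRandom (SD, n = 6) and 998.7 ± 131 CPM in shDRP1 libraries (SD, n = 5), a log2 fold change of 0.58 (SE 0.10, adjusted p = 9.8e-05, edgeR). Hsp90b1 overlaps the pseudogene 1810014B01Rik on the opposite strand, which had 303 counts in all libraries together against 159987 for Hsp90b1.

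Hspa5 (ENSMUSG00000026864, chromosome 2, 34771970 to 34777547, plus strand) ranged from 1177 to 1421 CPM in shRandom libraries, with a median of 1332. Replicates 1 to 5 of shDRP1 were at 1421, 1389, 1313, 1483 and 1687 CPM. Only replicates 4 and 5 of shDRP1 exceeded the highest shRandom library. For Hspa5 edgeR gave a log2 fold change of 0.15 (95% interval -0.01 to 0.31, adjusted p = 0.085). The interval includes no change and a rise of 0.31 on the log2 scale. Hspa5 passed under some other settings, at 0.24 with upper-quartile scaling (adjusted p = 0.011), 0.25 with library totals alone (0.0034), 0.18 with a stricter low-count filter (0.044) and 0.19 without shDRP1 replicate 3 (0.044, all edgeR). Without shDRP1 replicate 5, the highest library, it was at 0.097 (adjusted p = 0.24, edgeR).

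Sdf2l1 (ENSMUSG00000022769, chromosome 16, 17130138 to 17132383, minus strand), a partner of the BiP cochaperone system in the lumen, showed the largest rise of the 10 genes. It lay between 7.18 and 8.57 CPM in shRandom libraries (median 7.63), and shDRP1 replicates 1 to 5 were at 18.4, 24.3, 20.5, 19.0 and 21.7 CPM. The groups were far apart. The means were 7.77 ± 0.564 CPM in shRandom (SD, n = 6) and 20.8 ± 2.35 CPM in shDRP1 libraries (SD, n = 5), 2.67-fold by the fitted log2 fold change of 1.42 (SE 0.09, adjusted p = 4.7e-09, edgeR). Raw counts of Sdf2l1 ran from 115 to 404 per library, so its level rests on fewer reads than that of the abundant chaperones.

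Dnajb9 (ERdj4, ENSMUSG00000014905, chromosome 12, 44205559 to 44210326, minus strand), a BiP cochaperone that hands misfolded proteins to degradation and is known as a target of spliced XBP1, went the other way. Its shRandom libraries ran from 7.96 to 12.9 CPM (median 10.2), and shDRP1 replicates 1 to 5 were at 4.93, 7.97, 5.25, 3.11 and 3.55 CPM. The groups touched, since shDRP1 replicate 2 lay just above the lowest shRandom library. By edgeR, Dnajb9 fell by 1.07 on the log2 scale (SE 0.21, adjusted p = 0.00039), a fitted change of -52.4%.

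Pdia4 (ERp72, ENSMUSG00000025823, chromosome 6, 47796141 to 47813430, minus strand), a disulfide isomerase with several thioredoxin-like domains, had the widest spread in control libraries. It ranged from 34.9 to 76.0 CPM in shRandom (median 67.1), and shDRP1 replicates 1 to 5 were at 85.5, 48.6, 48.8, 91.7 and 117 CPM. Replicate 1 of shRandom and replicates 2 and 3 of shDRP1 were low within their groups. The log2 fold change of 0.32 (95% interval -0.23 to 0.86, adjusted p = 0.28, edgeR) did not pass.

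The low libraries of Pdia4 were also those with the smallest share of counts on Gm26917 and Gm42418, long noncoding genes known to collect ribosomal RNA reads. That share was 2.70% in shRandom replicate 1, 2.73% in shDRP1 replicate 2 and 2.45% in shDRP1 replicate 3, while the other libraries had 4.01% to 5.56%. Pdia4 deviated from its group mean by -0.80, -0.60 and -0.59 on the log2 scale in these 3 libraries, and by 0.66 in shDRP1 replicate 5, which had the 5.56%. Calr deviated the same way, by -0.27, -0.20 and -0.24 in the 3 libraries and by 0.31 in shDRP1 replicate 5. Xbp1 deviated by 0.37, 0.62 and 0.19 and Dnajb9 by 0.34, 0.75 and 0.16 in the 3 libraries, which is the opposite direction. In shDRP1 replicate 5 both deviated by -0.39. Large deviations also occurred at middling shares. Xbp1 and Dnajb9 were at -0.55 and -0.35 in shRandom replicate 4 (4.38%) and at -0.35 and -0.58 in shDRP1 replicate 4 (4.13%). Xbp1 was at 0.245 in shRandom replicate 5 (4.32%). The share of counts on Gm26917 and Gm42418 was then used as a covariate, chosen after the data were seen. In that fit Pdia4 had a log2 fold change of 0.44 (SE 0.08, adjusted p = 7.7e-05, edgeR). Hspa5 was at 0.18 (adjusted p = 0.0090) and Calr at -0.16 (adjusted p = 0.0059, both edgeR). With the covariate 4 of the 10 genes were higher and 5 lower, and of 13025 tested genes 4691 were higher and 4584 lower. Without the 3 libraries Pdia4 was at 0.51 (adjusted p = 0.00053), Hspa5 at 0.20 (adjusted p = 0.044) and Calr at -0.13 (adjusted p = 0.13, all edgeR). In that fit 4 of the 10 genes were higher and 4 lower, and of 13271 tested genes 4220 were higher and 4400 lower. What sets this share apart in the 3 libraries was not tested.

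**Figure D2:**
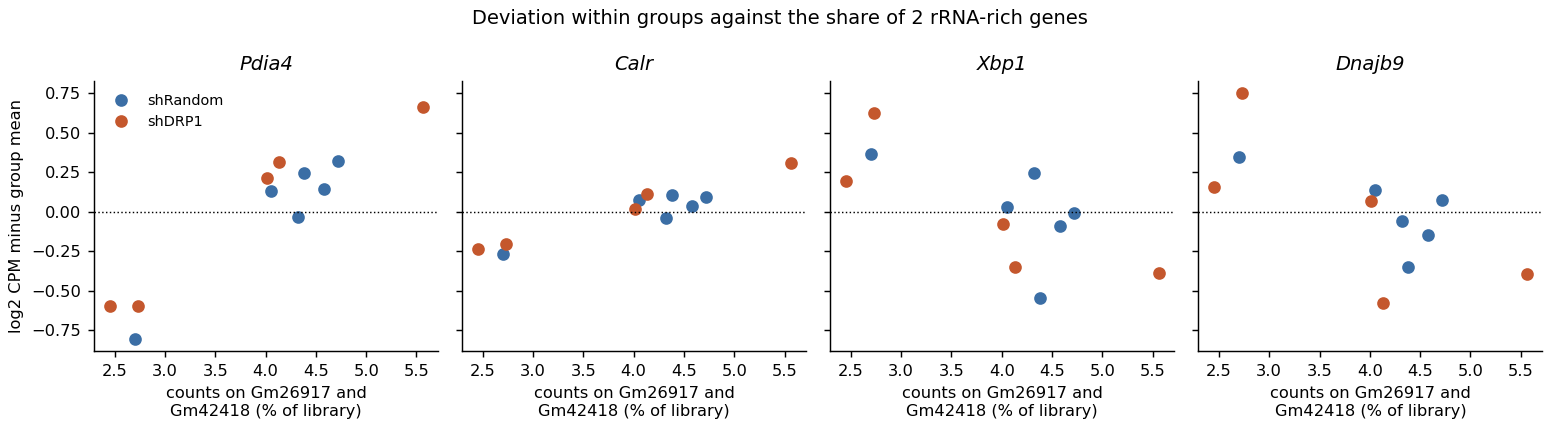
Deviation of log2 CPM from the mean of its own group (y axis) against the percent of each library's counts on Gm26917 and Gm42418 (x axis) for 4 genes, with 1 dot per library in shRandom (n = 6) and shDRP1 (n = 5). Pdia4 and Calr are below their group means in the 3 libraries under 3%, and Xbp1 and Dnajb9 are above theirs.

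Calr (ENSMUSG00000003814), the calcium-binding lectin chaperone, was at 1425 to 1842 CPM in shRandom libraries (median 1775). In shDRP1 replicates 1 to 5 it was at 1487, 1275, 1245, 1588 and 1816 CPM. The groups overlapped. Its log2 fold change of -0.21 did not pass (95% interval -0.43 to 0.001, adjusted p = 0.072, edgeR). Calr passed as lower without shRandom replicate 1 (-0.27, adjusted p = 0.024), without shDRP1 replicate 5 (-0.30, adjusted p = 0.011), without shRandom replicate 1 and shDRP1 replicate 2 together (-0.22, adjusted p = 0.044, all edgeR) and with DESeq2 (-0.23, adjusted p = 0.0498). It was at -0.127 with upper-quartile scaling (adjusted p = 0.264) and at -0.115 with library totals alone (adjusted p = 0.262, both edgeR).

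The largest change of the 10 genes was in Herpud1 (ENSMUSG00000031770), an ER membrane protein that helps to assemble the HRD1 complex for degradation of misfolded proteins. It ranged from 444.3 to 543.1 CPM in shRandom libraries (median 465.3), and shDRP1 replicates 1 to 5 were at 60.4, 70.8, 60.7, 54.9 and 60.3 CPM. No shDRP1 library came near the control range. The means were 481.8 ± 41.4 CPM in shRandom (SD, n = 6) and 61.4 ± 5.80 CPM in shDRP1 libraries (SD, n = 5), a log2 fold change of -2.97 (SE 0.08, adjusted p = 3.6e-13, edgeR) or 7.85-fold. Of all tested genes, 7.25% had a fold change at least as large in either direction. An antisense gene, Gm15890, is annotated over Herpud1, and the strand setting of the counting is not given in the sources used here.

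Calr and Herpud1 lie 9.54 Mb apart on chromosome 8, at 84841850 to 84846934 and 94386438 to 94395377 (GRCm38), in a region where most genes were lower in shDRP1 libraries. Of the 51 tested genes that start within 1 Mb of Calr, 44 were lower (86.3%) and 4 higher, with a median log2 fold change of -1.16. Among all tested genes 33.3% were lower and 33.9% higher. Calr stood above that median by 0.95 on the log2 scale, and 7 of the 51 neighbours had a higher value than Calr. Farsa, a subunit of phenylalanyl-tRNA synthetase and the nearest tested neighbour on one side, was at -1.16 (SE 0.09, adjusted p = 3.0e-08, edgeR).

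Of the 25 tested genes within 1 Mb of Herpud1, 22 were lower (88.0%) and 2 higher, with a median of -0.98. The difference of Herpud1 from that median was -1.99, and 2 of the 25 neighbours had a lower value. The nearest tested neighbours were Nup93, a nuclear pore protein, at -0.94 (SE 0.10) and Cpne2, a copine, at -1.07 (SE 0.10). From 1 Mb before Calr to 1 Mb beyond Herpud1, 87 of 102 other tested genes were lower (85.3%), against 33.3% of all tested genes.

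**Figure D3:**
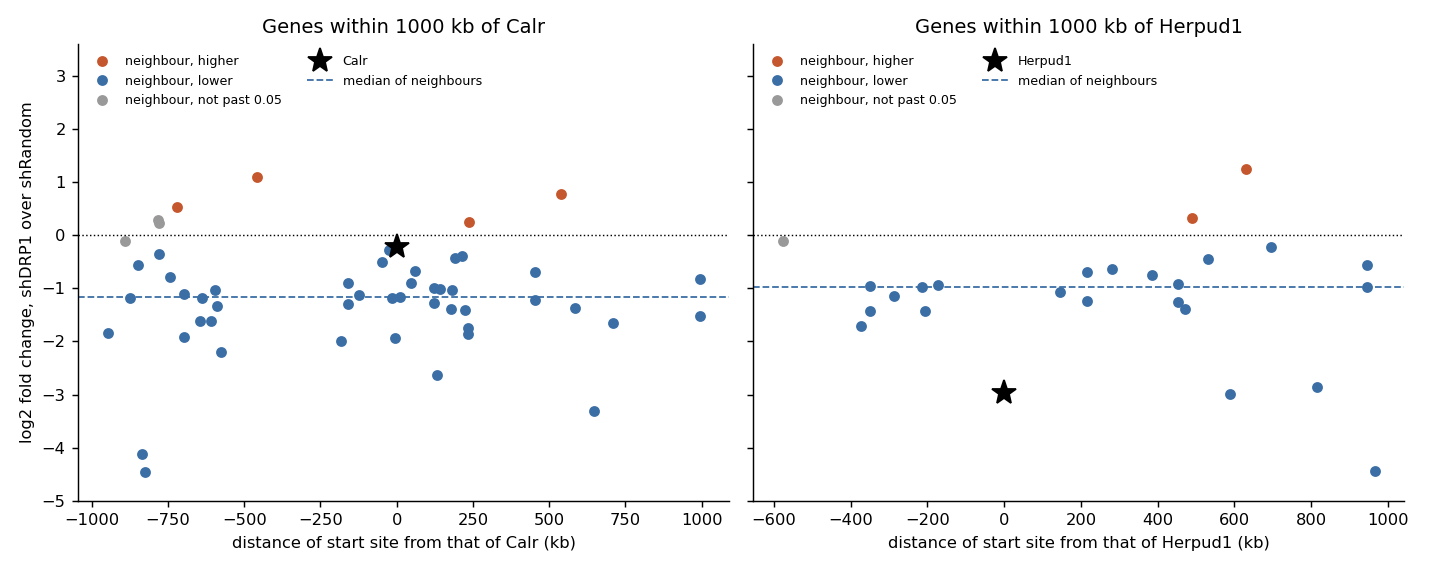
Log2 fold change of shDRP1 over shRandom (y axis) for every tested gene starting within 1 Mb of Calr (left, 51 genes) and Herpud1 (right, 25 genes), against the distance between start sites in kb. Calr (star) lies above the dashed median of its neighbours at -1.16, and Herpud1 (star) lies below that of its neighbours at -0.98.

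Around the other 8 genes the neighbours differed from gene to gene. Shares of all tested genes, for comparison, were 33.9% higher and 33.3% lower. Sdf2l1 rose among 35 neighbours with a median log2 fold change of 0.03, of which 16 were higher and 10 lower. Atf6 fell among 27 neighbours with a median of 0.50, of which 16 were higher and 3 lower. Of the 34 neighbours of Xbp1, 19 were lower (55.9%) and 6 higher, with a median of -0.29. Dnajb9 had 1 tested neighbour, which was lower, at -1.14. Medians of the neighbours were -0.17 for Ern1 and -0.07 for Pdia4. For Hspa5 and Hsp90b1 they depended on the window, at 0.39 and 0.03 within 1 Mb, 0.16 and 0.30 within 0.5 Mb and 0.17 and 0.002 within 2 Mb.

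**Figure D4:**
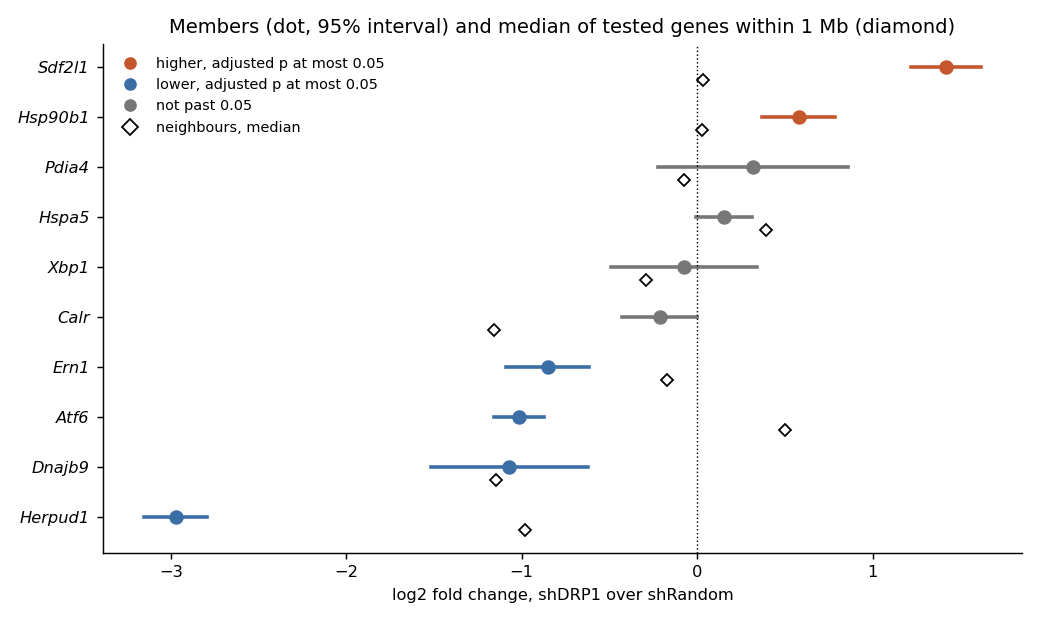
Log2 fold change of shDRP1 over shRandom for the 10 genes with 95% intervals (dots, coloured by edgeR call), and the median of tested genes starting within 1 Mb of each (diamonds). For Calr and Herpud1 the diamonds lie near -1, and for Atf6 the gene and its neighbours lie on opposite sides of 0.

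Of the sensors, the transcripts of ATF6 and IRE1 fell. Atf6 (ENSMUSG00000026663, chromosome 1, 170704674 to 170867771, minus strand) ranged from 149.9 to 169.1 CPM in shRandom libraries (median 162.4), and shDRP1 replicates 1 to 5 were at 81.9, 85.2, 68.1, 85.9 and 79.7 CPM. The groups did not overlap, and the spread was the smallest of the 10 genes in both groups, with a coefficient of variation of 4.10% in shRandom and 8.99% in shDRP1. Atf6 fell by 1.01 on the log2 scale (SE 0.07, adjusted p = 4.5e-09, edgeR), and its shDRP1 mean was 49.5% of the control mean. Ern1 (ENSMUSG00000020715, chromosome 11, 106394650 to 106487852, minus strand), which encodes IRE1 alpha, ranged from 17.4 to 19.6 CPM in shRandom libraries (median 17.7), and shDRP1 replicates 1 to 5 were at 7.54, 11.1, 11.3, 11.4 and 9.02 CPM. These groups did not overlap either. Ern1 fell by 0.85 on the log2 scale (SE 0.11, adjusted p = 8.0e-06, edgeR), a fitted change of -44.6%.

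Xbp1 (ENSMUSG00000020484, chromosome 11, 5520659 to 5525893, plus strand), the substrate of IRE1, did not pass the test. It ranged from 39.6 to 74.7 CPM in shRandom libraries (median 58.4), and shDRP1 replicates 1 to 5 were at 51.4, 83.4, 61.9, 42.4 and 41.5 CPM. The ranges covered each other. For Xbp1 edgeR gave a log2 fold change of -0.08 (95% interval -0.49 to 0.34, adjusted p = 0.74), and its sign differed between scalings, at 0.007 with upper-quartile scaling and 0.025 with library totals alone.

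The remaining sensors and their partners moved in both directions. Of 13 tested genes on that list, 6 rose, 3 fell and 4 did not pass (69.2% called, median 0.14). That is near the 67.1% called among all tested genes, 33.9% higher and 33.3% lower. Mbtps1, the site-1 protease that cuts ATF6, rose from 172.6 ± 9.03 CPM in shRandom (SD, n = 6) to 263.1 ± 9.33 CPM in shDRP1 libraries (SD, n = 5), a log2 fold change of 0.61 (adjusted p = 1.3e-07, edgeR). Atf6b, a paralog of Atf6, rose by 0.72 (adjusted p = 1.4e-05) and Tmbim6, which restrains IRE1, rose by 0.48 (adjusted p = 0.00048, both edgeR). Wfs1, the ER membrane protein wolframin, fell by 0.99, Traf2, an adaptor of IRE1, fell by 0.71 and Nfyb, a subunit of the NF-Y complex, fell by 0.37 on the log2 scale. Nfyb was lower in all 5 shDRP1 libraries, at 50.4 to 63.2 CPM against 67.1 to 75.0 CPM.

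On the PERK list the transcript of the sensor rose while most other genes fell, and whether PERK acts on them here was not tested. Eif2ak3, which encodes PERK, rose from 5.62 ± 0.930 CPM in shRandom (SD, n = 6) to 8.68 ± 1.38 CPM in shDRP1 libraries (SD, n = 5). Its log2 fold change was 0.63 (adjusted p = 0.0011, edgeR), on raw counts of only 75 to 196 per library. Of the 12 genes of this list, 9 fell, 1 rose and 2 did not pass (83.3% called), with a median of -1.43. Shares of all tested genes were 67.1% called, 33.3% lower and 33.9% higher. Atf4 fell from 2500 to 896.3 CPM, and all 5 shDRP1 libraries, at 716.9 to 1100 CPM, were under the shRandom range of 2151 to 2846 CPM. Ddit3 (CHOP), a death-promoting factor downstream of ATF4, fell by 57.2% (SE 0.13 on the log2 scale). Its target Trib3 fell by 1.81 and Ppp1r15a (GADD34), which recruits a phosphatase to eIF2 alpha, fell by 1.40 on the log2 scale. Log2 fold changes were -2.50 for Atf3, a stress-induced transcription factor, -1.83 for Chac1, a glutathione-degrading enzyme, -1.78 for Nupr1, -1.45 for Asns, asparagine synthetase, and -0.35 for Eif2s1, which encodes eIF2 alpha. The adjusted p-values of these 9 genes ran from 5.2e-11 for Nupr1 to 0.0072 for Eif2s1 (edgeR), and Eif2s1 was no longer past the threshold with library totals alone. Ppp1r15b, the constitutive partner of the eIF2 alpha phosphatase, and Sesn2, a sestrin, at 0.22 and 0.34, did not pass (adjusted p = 0.082 and 0.056, edgeR).

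Other lumenal chaperones and folding enzymes were more often higher than lower. Of 25 tested, 15 rose, 3 fell and 7 did not pass (72.0% called), with a median log2 fold change of 0.53. Among all tested genes 67.1% were called, 33.9% higher and 33.3% lower. Erp29, a redox-inactive relative of the disulfide isomerases, rose from 138.2 ± 3.66 CPM in shRandom (SD, n = 6) to 269.3 ± 20.5 CPM in shDRP1 libraries (SD, n = 5), a log2 fold change of 0.96 (adjusted p = 1.7e-09, edgeR). Pdia5 was at 17.8 to 26.3 CPM in shRandom and at 55.6 to 69.2 CPM in shDRP1 libraries, a log2 fold change of 1.44 (adjusted p = 9.8e-09, edgeR). Fkbp11, a peptidyl-prolyl isomerase, rose by 0.60 (adjusted p = 1.6e-07, edgeR). Sil1, which exchanges the nucleotide of BiP, fell by 0.83, Ero1l, the oxidase that recharges disulfide isomerases, fell by 0.43 and Hspa13, a relative of HSP70, fell by 0.37 on the log2 scale (adjusted p = 1.1e-05, 0.0022 and 0.00019, edgeR).

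A list of 16 genes covered the translocon, signal peptide handling and export from the ER. By edgeR 10 of them rose, 0 fell and 6 did not pass (62.5% called, median 0.38). Calls over all tested genes were 67.1%, with 33.9% higher and 33.3% lower. Spcs3, 1 of the 10 (adjusted p = 0.046, edgeR), lost its call in 15 of 23 alternatives. The lowest value on this list was -0.04, 0 were lower at an unadjusted p under 0.05, and DESeq2 and limma-voom also called 0 lower (11 and 9 higher). Sec24d and Sec31a, coat proteins of the vesicles that leave the ER, rose by 1.03 and 0.50, and Ssr2, a subunit of the translocon-associated complex, rose by 0.65 on the log2 scale (adjusted p = 4.6e-07, 8.5e-07 and 9.9e-07, edgeR).

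Genes of ER-associated degradation were split. Of 21 tested, 10 rose, 7 fell and 4 did not pass (81.0% called, median 0.16). All tested genes had 67.1% called, 33.9% higher and 33.3% lower. Edem1, a lectin-like protein that marks glycoproteins for degradation, rose from 19.8 ± 1.66 CPM in shRandom (SD, n = 6) to 33.9 ± 3.35 CPM in shDRP1 libraries (SD, n = 5), a log2 fold change of 0.78 (adjusted p = 1.2e-06, edgeR). Edem3, of the same family, and Faf2, which recruits the p97 ATPase, rose by 0.47 each (adjusted p = 0.00016 and 0.00023, edgeR). Sel1l, the scaffold of the HRD1 ligase that Herpud1 joins, fell by 0.77 and Derl1, a channel component, fell by 0.58 on the log2 scale (adjusted p = 9.1e-07 and 1.3e-06, edgeR). Syvn1, which encodes the HRD1 ligase itself, rose by 1.60 (adjusted p = 0.014, edgeR). Its groups overlapped, and its raw counts ran from 33 to 478 per library.

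Calcium-binding proteins of the lumen other than Calr rose in 4 of 9 cases and fell in 2 (66.7% called, median 0.13). This share is near the 67.1% called among all tested genes, 33.9% higher and 33.3% lower. Both calcium binders that fell are calsequestrins, the calcium buffers of striated muscle. Casq2 fell from 456.1 ± 62.6 CPM in shRandom (SD, n = 6) to 3.48 ± 1.76 CPM in shDRP1 libraries (SD, n = 5) and Casq1 from 7.60 to 0.710 CPM, alongside the myotube markers given above. Rcn3, Nucb2 and Rcn1, calcium-binding proteins of the secretory pathway, rose by 0.86, 0.59 and 0.34 (adjusted p = 1.3e-08, 1.6e-05 and 6.5e-05, edgeR).

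All 7 genes of ER stress cell death were called (100%), 5 higher and 2 lower with a median of 0.41. Of all tested genes 67.1% were called, 33.9% higher and 33.3% lower. Tnfrsf10b, the death receptor DR5, rose from 15.1 ± 2.27 CPM in shRandom (SD, n = 6) to 50.1 ± 7.64 CPM in shDRP1 libraries (SD, n = 5), a log2 fold change of 1.74 (adjusted p = 1.2e-08, edgeR), while Ddit3, which is known to activate it and counts in this list too, was lower. Of the death-promoting BCL2 family, Bcl2l11 (BIM) rose by 0.88 and Bak1 rose by 0.41, and Bbc3 (PUMA) fell by 0.51 on the log2 scale (adjusted p = 1.1e-07, 0.0013 and 0.0012, edgeR).

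**Figure D5:**
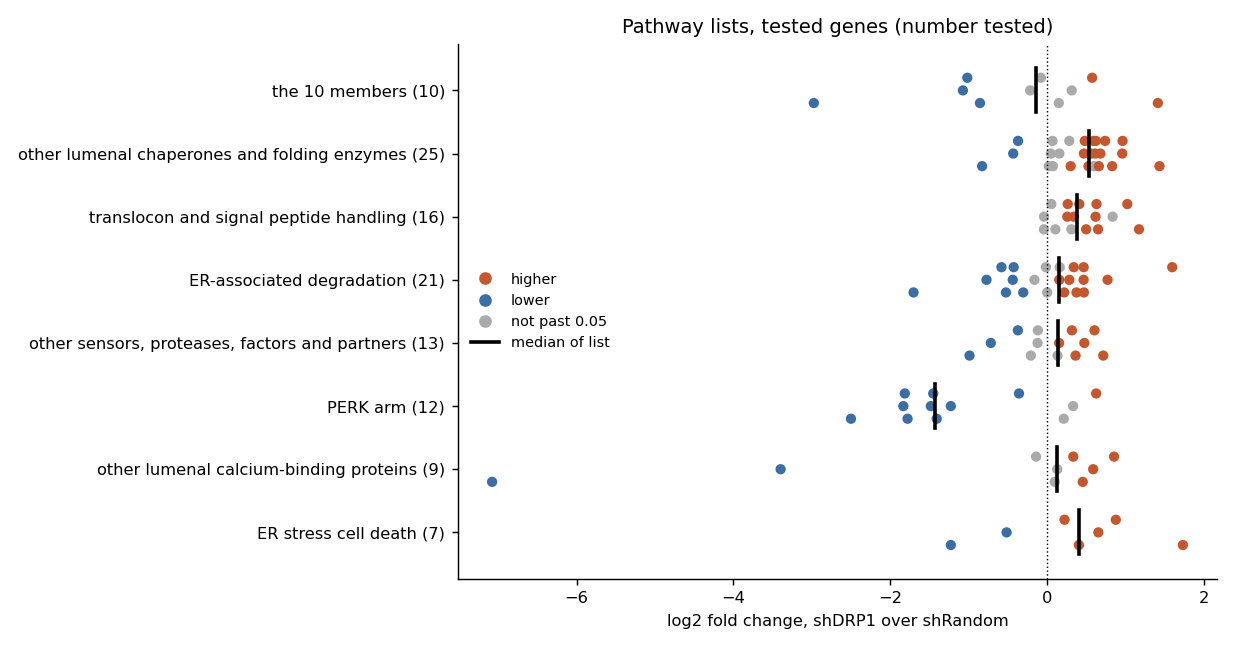
Log2 fold change of shDRP1 over shRandom for each tested gene of 8 lists (dots, coloured by edgeR call), with the number tested in brackets and the median of each list as a black bar. The PERK arm has the lowest median, at -1.43, and the list of other chaperones and folding enzymes the highest, at 0.53.

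Genes sharing the ERSE letters of the printed promoters did not share a direction. Of 17 tested genes with an exact ERSE in a window, 6 were higher, 5 lower and 6 did not pass (64.7% called, median log2 fold change 0.15). That is near the 67.1% called among all tested genes, 33.9% higher and 33.3% lower. The 14 that are not among the 10 members split into 5 higher, 5 lower and 4 that did not pass, with a median of 0.19 and a range from -5.98 to 1.60. Some of these were near the floor. Calr4, Tdrd9 and Xlr3a, all lower, had shRandom means of 1.37, 0.897 and 2.30 CPM. Pan2, which was higher, had a shRandom mean of 1.71 CPM. The parts CCAAT and CCACG alone were in 37.4% and 32.8% of all windows.

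Likeness of pattern was measured as the root mean square difference of log2 CPM over the 11 libraries, each gene centred on its own mean, among 8322 genes of at least 10 CPM. For Hspa5 the nearest were Etfb (0.05), Pole3 (0.05) and En1 (0.06), and among the other members Calr was nearest, at 0.21 and rank 2386. For Herpud1 the nearest were Porcn (0.12), Kifc3 (0.12) and Chrnb1 (0.12), and Kifc3 is among its neighbours on chromosome 8. Among the other members ranked, Atf6 was nearest to Herpud1, at 0.99 and rank 652. Dnajb9, with a mean under 10 CPM, was ranked for neither Hspa5 nor Herpud1.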

How the data were processed

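Messenger RNA was measured by QuantSeq in 6 shRandom and 5 shDRP1 libraries, grouped by their titles. Per the labels, RNA was extracted with a column kit and read forward from the 3' tag; per the series text, alignment used BlueBee. DESeq2 version 1.22.2 and the builds mm10 and GRCm38 stand in the submitters' processing notes. No source used here gives the aligner, counter, strand setting or annotation release. The deposited table holds raw whole-number counts per gene. A second deposited table, of scaled values, was not used. Of 15113 identifiers, 15080 matched a symbol.

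Counts were tested with edgeR version 4.0.16 (R version 4.3.3): filterByExpr by group, TMM scaling, a robust quasi-likelihood fit on group, and Benjamini-Hochberg adjustment over all 13025 tested genes at 0.05. CPM use TMM-scaled totals, log2 CPM a prior count of 2, and standard errors come from the fold change and F statistic. Positions are from GENCODE M21 and promoters from RefSeq, both GRCm38. The fit was tested on simulated data with 50 genes changed at each of 4 sizes. It called 10% of 1.25-fold, 53.1% of 1.5-fold, 78% of 2-fold and 98.0% of 4-fold changes. These shares are over the changed genes that passed the low-count filter. Small changes were thus mostly missed there, and 2 of 120 calls were false. Far fewer genes changed in the simulation than were called in the data. No 2 replicates were the same library (chi-square over degrees of freedom 5.30 to 61.6).

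The members, lists and tests were chosen with earlier results of these data known. Named are the 10 members, Dnm1l, all PERK-arm genes, up to 3 genes per list and direction with the smallest adjusted p, the 3 genes nearest in pattern to Hspa5 and to Herpud1, and the nearest neighbours of Calr and Herpud1. Some genes that this rule names are not reported here. Alternatives were other scalings, filters and thresholds, DESeq2 version 1.42.0, limma-voom (limma version 3.58.1), a replicate block, thinned counts and left-out libraries. A covariate and the removal of 3 libraries were added after seeing the data. Intervals of fold changes cover the spread between libraries.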

Additional observations from a re-analysis of the deposited data

Results flagged for a closer look

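In 4 of 92 groups of libraries checked over 46 named genes, 1 library lay apart from the others of its group by Dixon's criterion, which chance meets in about 1 of 20 groups. Sec31a was at 251 CPM in shDRP1 replicate 1, below 277 to 287 CPM in the other shDRP1 libraries. Tmbim6 was at 392 CPM in shDRP1 replicate 2, above 285 to 312 CPM. Nfyb was at 67.1 CPM in shRandom replicate 1, below 73.5 to 75.0 CPM, and Casq1 was at 10.5 CPM in the same library, above 6.40 to 7.61 CPM. None of the 10 members met the criterion in either group.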

How the results depend on the processing

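Herpud1, Atf6, Ern1, Dnajb9, Hsp90b1 and Sdf2l1 stayed past the threshold in the same direction under every alternative that gave a value, 23 for each and 22 for Dnajb9, which a filter at a mean of 10 CPM removed. Their log2 fold changes ran from -3.04 to -2.87, -1.07 to -0.92, -0.98 to -0.75, -1.35 to -0.93, 0.48 to 0.68 and 1.32 to 1.52. Pdia4 ran from 0.13 to 0.51. The stricter filter called 2900 genes higher and 2838 lower in place of 4413 and 4332, among 8328 tested. With the covariate for ribosomal RNA-rich genes, or without shRandom replicate 1, shDRP1 replicate 2 and shDRP1 replicate 3, 4 members in place of 2 were higher; the cause was not tested. Xbp1 reversed to 0.007 with upper-quartile scaling, 0.025 with library totals alone, 0.012 without shDRP1 replicate 4 and 0.017 without shDRP1 replicate 5 (-0.27 to 0.017 over single left-out libraries). Library totals alone moved the median of all genes by 0.10. Same-numbered libraries of the groups did not deviate together (correlations of -0.18 to 0.36 over genes, own number best in 1 of 5), so the numbers were not taken as pairs. With the replicate block 2 members were higher and 4 lower, and 3934 genes were higher and 4003 lower. Dnajb9, Sdf2l1 and Ern1 had as few as 61, 115 and 130 counts in a library, which limits their precision. With library totals alone or upper-quartile scaling, 3 PERK-arm genes in place of 1 and 6 lumenal calcium binders in place of 4 were higher. Those 2 scalings called 5207 and 5110 tested genes higher, in place of 4413. Under both added alternatives, the covariate and the removal of 3 libraries, 5 sensors and partners in place of 3 were lower. These called 4584 and 4400 tested genes lower, in place of 4332.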
